A study of Mus musculus with 20 samples.

Results

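Bcl11b regions listed as specific to the mouse T cells labelled Tn, when wild-type (WT) regulatory T (Treg) cells and Tn cells were compared, numbered 725 of 22081 distinct regions in the series. They were selected on that listing, as the distinct regions of the Tn-specific list that were not also in the common list of the same comparison. The Tn-specific list held 727 distinct regions. The 2 left out because they were also listed as common lay in Kansl1l and Tut7. Within the Treg against Tn comparison, 725 of the 7243 regions with a single class (10%) were Tn-specific, 4493 were common and 2025 were Treg-specific.

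The series measured binding of Bcl11b and Foxp3 by chromatin immunoprecipitation and sequencing (ChIP-seq) in 20 samples, 12 immunoprecipitated and 8 input, from lymph node and spleen T cells of C57BL/6 mice. Bcl11b was precipitated from WT Treg cells in 3 samples, from WT Tn cells in 3 samples, and in 2 samples from KIKO cells, which carry Foxp3-GFPKO, were sorted as CD4+GFP+ and are Treg cells without Foxp3. The Foxp3 libraries numbered 2 from WT Treg cells and 2 from Treg cells of mice with floxed Bcl11b alleles (Bcl11b f/f) and the Foxp3-IRES-YFP-Cre allele, called Bcl11b-KO. WT mice carried Foxp3-IRES-YFP-Cre too, so the Cre and reporter allele was shared by the WT and the Bcl11b-KO groups, and the Cre is driven from the Foxp3 locus. All of these WT and Bcl11b-KO cells, Tn included, were labelled as sorted CD4+YFP+. The labels do not expand Tn, and a list of positions gives no marker level against which the cell label could be checked, so the name is used as labelled. No age is given for the animals, and nothing says that replicates came from separate mice.

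Bcl11b is a zinc-finger transcription factor that is switched on when progenitors commit to the T lineage, and it stays on in mature T cells, where it can repress or activate genes together with chromatin complexes such as NuRD. Foxp3 is the forkhead transcription factor that defines Treg cells. Much of the chromatin that Foxp3 occupies is already open in T cells that lack it, and both proteins are found at promoters and at enhancers.

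The deposited lists hold positions without signal, score or replicate values. A region listed as Tn-specific is therefore a call, with no measured size of the difference and no spread between samples, and the depth behind it is unknown. Intervals below are Wilson 95% intervals of shares and cover counting error only. Each p compares regions of these lists and not the samples. Lists can also disagree: 53 of the 725 regions (7.31%, 5.63 to 9.44) stood on the Treg Bcl11b side of another comparison, 36 of them in the comparison with KIKO and 37 in the comparison with Foxp3. The Foxp3 listing and KIKO results are given with and without these 53.

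The sequences below are promoter windows that the regions cover in part or in full. They are windows from 250 bases before to 50 bases after a start site, from RefSeq on GRCm38.p6, written 5′ to 3′ on the strand of the gene. The 8 were chosen after the classes were known, to show each kind of Foxp3 listing described below. Capitals mark matches on either strand to 9 short motifs anywhere in the window, also outside the part that the region covers. Of factors that act throughout T cell development, RUNX proteins are known to bind TGTGGT, ETS proteins are known to bind CCGGAA, and E proteins are known to bind the E-box CAGNTG. Signal-dependent AP-1 dimers favour TGANTCA, while TCF-1 and LEF-1 favour CTTTGA. The forkhead proteins, Foxp3 among them, favour TGTTTAC, whereas GATA proteins favour GATAAG. The core of the longer CTCF site was searched as AGGGGGC, and the GC box of Sp proteins was searched as GGGCGG. In Kdm5c the AP-1 and TCF matches overlap. The forkhead and E-box matches of Prdm1, the RUNX match of Stat6 and the E-box match of Maml3 lie outside the covered part. A match is only a run of letters.
Stat6: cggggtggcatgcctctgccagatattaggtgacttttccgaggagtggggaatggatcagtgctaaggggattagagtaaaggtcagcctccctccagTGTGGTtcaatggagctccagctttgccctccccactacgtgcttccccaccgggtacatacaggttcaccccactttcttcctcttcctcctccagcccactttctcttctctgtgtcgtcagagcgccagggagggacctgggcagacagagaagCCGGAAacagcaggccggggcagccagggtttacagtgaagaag
Hipk1: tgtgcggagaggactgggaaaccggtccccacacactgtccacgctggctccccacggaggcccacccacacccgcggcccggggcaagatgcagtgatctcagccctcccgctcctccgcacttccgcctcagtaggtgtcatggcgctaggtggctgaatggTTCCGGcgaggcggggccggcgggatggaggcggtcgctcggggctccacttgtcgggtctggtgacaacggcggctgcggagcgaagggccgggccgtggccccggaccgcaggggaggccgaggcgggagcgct
Prdm1: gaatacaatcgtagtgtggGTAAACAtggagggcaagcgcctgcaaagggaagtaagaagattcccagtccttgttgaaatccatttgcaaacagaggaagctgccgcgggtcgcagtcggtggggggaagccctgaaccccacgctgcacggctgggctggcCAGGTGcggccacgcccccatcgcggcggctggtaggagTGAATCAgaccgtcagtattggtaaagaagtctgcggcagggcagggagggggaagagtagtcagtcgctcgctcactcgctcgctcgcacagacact
Maml3: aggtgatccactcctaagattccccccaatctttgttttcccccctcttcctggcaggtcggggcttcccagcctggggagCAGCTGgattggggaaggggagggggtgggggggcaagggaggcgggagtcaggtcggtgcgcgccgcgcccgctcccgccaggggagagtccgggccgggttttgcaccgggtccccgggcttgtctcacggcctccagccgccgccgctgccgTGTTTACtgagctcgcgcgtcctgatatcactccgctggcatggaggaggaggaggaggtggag
Asxl2: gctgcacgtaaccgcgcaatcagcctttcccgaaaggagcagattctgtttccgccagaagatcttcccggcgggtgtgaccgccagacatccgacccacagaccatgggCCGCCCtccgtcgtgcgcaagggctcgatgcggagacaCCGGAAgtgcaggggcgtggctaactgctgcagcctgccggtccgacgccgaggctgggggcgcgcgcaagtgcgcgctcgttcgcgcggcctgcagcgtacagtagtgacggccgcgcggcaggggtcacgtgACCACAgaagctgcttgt
Zfp143: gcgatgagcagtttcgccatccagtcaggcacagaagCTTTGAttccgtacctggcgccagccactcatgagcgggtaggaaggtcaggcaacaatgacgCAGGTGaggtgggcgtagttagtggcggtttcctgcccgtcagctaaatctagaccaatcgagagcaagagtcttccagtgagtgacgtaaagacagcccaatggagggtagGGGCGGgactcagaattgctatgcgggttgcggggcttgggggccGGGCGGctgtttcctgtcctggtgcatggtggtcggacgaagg
Kdm5c: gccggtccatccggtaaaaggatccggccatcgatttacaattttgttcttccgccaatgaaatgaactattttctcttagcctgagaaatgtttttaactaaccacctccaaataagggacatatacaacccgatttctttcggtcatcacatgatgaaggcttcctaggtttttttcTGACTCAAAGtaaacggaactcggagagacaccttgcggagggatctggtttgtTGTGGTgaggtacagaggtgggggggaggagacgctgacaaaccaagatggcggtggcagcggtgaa
Appl2: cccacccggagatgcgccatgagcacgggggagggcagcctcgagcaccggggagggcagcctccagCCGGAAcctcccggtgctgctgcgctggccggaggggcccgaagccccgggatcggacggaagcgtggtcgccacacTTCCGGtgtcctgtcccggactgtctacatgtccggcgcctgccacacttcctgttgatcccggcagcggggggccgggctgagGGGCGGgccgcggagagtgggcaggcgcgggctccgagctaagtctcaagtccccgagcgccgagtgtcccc

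The first 2 windows belong to regions in neither Foxp3 comparison. Stat6, the gene of the transcription factor downstream of IL-4, has its window at chr10:127642736-127643035 on the plus strand, and the Tn-specific region covered 173 of its 300 bases. Hipk1, a nuclear kinase gene, has its window at chr3:103791226-103791525 on the minus strand, with 226 bases covered. The next 3 belong to regions common to WT and Bcl11b-KO Foxp3. They are Prdm1, which encodes the repressor Blimp-1 (chr10:44458699-44458998, minus strand, 112 bases covered), Maml3, a Notch coactivator gene (chr3:52104957-52105256, minus strand, 153 bases covered), and Asxl2, a polycomb-associated gene (chr12:3426607-3426906, plus strand, 300 bases covered). Zfp143 encodes a promoter-binding zinc-finger protein (chr7:110061452-110061751, plus strand), and Kdm5c an X-linked histone demethylase (chrX:152232977-152233276, plus strand). Both windows were covered over 300 bases by regions listed as specific to WT Foxp3, and the Kdm5c region is 1 of the 53 on which the lists disagree. Appl2, an endosomal adaptor gene (chr10:83648615-83648914, minus strand), was covered over 300 bases by a region specific to Bcl11b-KO Foxp3.

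Of the 725 Tn-specific regions, 492 (67.9%, 64.4 to 71.2) appeared in no other list of the series, beside 648 of 4493 common (14.4%) and 0 of 2025 Treg-specific regions. Tn Bcl11b enters only the comparison that chose the members, whereas Treg Bcl11b also enters the comparisons with KIKO and with Foxp3, so these counts depend on how the lists were built and are a description. In the comparison of Bcl11b with Foxp3 in WT Treg cells, 161 (22.2%, 19.3 to 25.4) were listed for Foxp3 only, 35 (4.83%, 3.49 to 6.64) were shared by both proteins, 2 were listed for Bcl11b only and 527 were not listed. Over all regions of that comparison, 56.8% were Foxp3 only and 28.3% were shared. The Treg Bcl11b set enters both this comparison and the choice of the members, so the split between Foxp3 only and shared is a description.

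In the comparison of Foxp3 between WT and Bcl11b-KO Treg cells, which asks where Foxp3 binding differs without Bcl11b, 224 Tn-specific regions were listed (30.9%, 27.6 to 34.4), beside 80.1% of all regions of the series. Of the 725, 156 (21.5%) were common to WT and Bcl11b-KO Foxp3, 48 (6.62%) were specific to WT and 20 (2.76%) were specific to Bcl11b-KO. Over all regions of that comparison, 59.7% were common, 27.2% WT-specific and 13.1% Bcl11b-KO-specific. Foxp3 listing was less frequent among Tn-specific than among common Bcl11b regions, of which 58.3% were listed (odds ratio 0.320, 0.269 to 0.379, two-sided Fisher's exact test, adjusted p = 1.4e-42). It was more frequent than among Treg-specific regions, of which 11.7% were listed (odds ratio 3.37, 2.72 to 4.17, exact adjusted p = 6.4e-29). These and the other tests against common and Treg-specific regions were adjusted by Benjamini-Hochberg over 12 tests. With the 53 regions left out, the odds ratios were 0.258 and 2.72. The 53 include by definition every Tn-specific region shared by Bcl11b and Foxp3, and no region was left out of the other sets. The lower Foxp3 listing, 178 of 672, is therefore partly built into this choice. With all 725 regions and WT Foxp3 listing from the Bcl11b against Foxp3 comparison, the share was 27.0%, beside 64.7% of common and 17.7% of Treg-specific regions. The odds ratio was then 0.202 (0.169 to 0.241) against common and 1.72 (1.40 to 2.12) against Treg-specific regions. That comparison also uses the Treg Bcl11b set, and this setting was added after seeing the data.

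**Figure D1:**
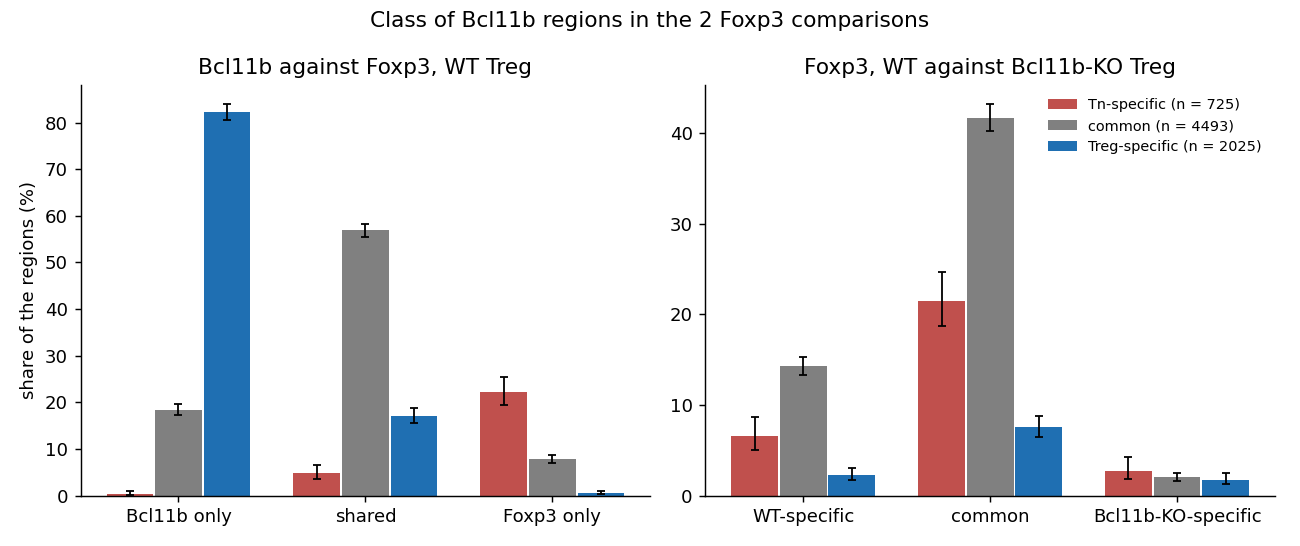
Share of Tn-specific, common and Treg-specific Bcl11b regions in each class of the 2 Foxp3 comparisons, as a percentage of all regions of the set on axes that differ between the panels; error bars are Wilson 95% intervals. Tn-specific regions reached 22.2% in the Foxp3 only class and 21.5% in the class common to WT and Bcl11b-KO Foxp3.

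Among regions listed for WT Foxp3, no difference in the share that was WT-specific was detected between Tn-specific and other Bcl11b regions. The share was 48 of 204 (23.5%) for Tn-specific regions, 641 of 2516 (25.5%) for common regions and 47 of 201 (23.4%) for Treg-specific regions. Neither difference passed the test (odds ratio 0.90, 0.629 to 1.27, exact adjusted p = 0.671 against common, and 1.01, 0.620 to 1.64, exact adjusted p = 1.0 against Treg-specific). The intervals still allow odds from 0.629 to 1.27 times those of common regions. A listing as Bcl11b-KO-specific was more frequent among Foxp3-listed Tn-specific regions, at 20 of 224 (8.93%), than among common ones, at 91 of 2607 (3.49%; odds ratio 2.71, 1.55 to 4.54, exact adjusted p = 6.9e-04). Against Treg-specific regions, at 36 of 237 (15.2%), the difference did not pass (odds ratio 0.548, 0.290 to 1.01, exact adjusted p = 0.0687). Over all regions of the WT against Bcl11b-KO Foxp3 comparison, the Bcl11b-KO-specific share was 13.1%, above that of the Tn-specific regions.

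The 2 Foxp3 comparisons mostly placed the same Tn-specific regions on the WT Foxp3 side, 185 in both. Of the 161 Foxp3 only regions, 114 were common to WT and Bcl11b-KO Foxp3, 38 were WT-specific and 9 were Bcl11b-KO-specific. Of the 35 shared regions, 23 were common, 10 were WT-specific, 1 was Bcl11b-KO-specific and 1 was not listed. The 9 and the 1 Bcl11b-KO-specific regions were thus listed for WT Foxp3 in the other comparison, so the 2 comparisons disagree on them. Of the regions not listed in the Bcl11b against Foxp3 comparison, 19 were common to WT and Bcl11b-KO Foxp3 and 10 were Bcl11b-KO-specific. The 19 include the Prdm1 and Csk regions and the wider of the regions at Fgf18 and at Usp4. These 19, and the 1 shared region that was not listed, were thus listed for WT Foxp3 in 1 comparison only, and the 2 comparisons disagree on them too.

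On the KIKO side of the comparison of Bcl11b between Treg and KIKO cells stood 37 of the 725 Tn-specific regions (5.10%, 3.72 to 6.96), 34 as common to Treg and KIKO and 3 as KIKO-specific. The 53 regions include by definition all 34 of the common ones. With the 53 left out, only KIKO-specific regions could remain on the KIKO side, and it was 3 of 672. Over all regions of that comparison, 37.2% were common and 1.17% KIKO-specific. The KIKO side held 35.1% of the regions common to Treg and Tn and 13.3% of the Treg-specific ones. A region common to Treg and KIKO is by that call a Treg Bcl11b region, and the choice of the members selects against those, so these shares are a description and no test of their difference is read. The 3 KIKO-specific regions were at Mre11a, a gene of DNA break repair, with 403 bp, at Apbb2 with 288 bp and at Sharpin, a subunit gene of a ubiquitin ligase complex, with 252 bp.

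Region width went with listing. Tn-specific regions were 226 to 608 bp wide, and 480 of the 725 (66.2%) had the modal width of the Tn Bcl11b set, 226 bp. Among the 492 in no other list, 479 (97.4%) had exactly this width. Of the 233 that also stood in another list, 1 did, and 189 (81.1%) exceeded 276 bp, which is the modal width of the Bcl11b-KO Foxp3 set and larger than that of any other. Among regions wider than 276 bp, Foxp3 listing was near complete in each class, with 184 of 193 Tn-specific, 2206 of 2345 common and 189 of 190 Treg-specific regions. Within that width the odds ratio was 1.29 against common and 0.109 against Treg-specific regions, both opposite in direction to the values over all widths. Since 189 of the 233 regions in another list but 4 of the 492 in no other list exceeded 276 bp, a choice by width is largely a choice by listing, and nothing is read from these odds ratios. The part of width in the Foxp3 listing results was not tested.

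**Figure D2:**
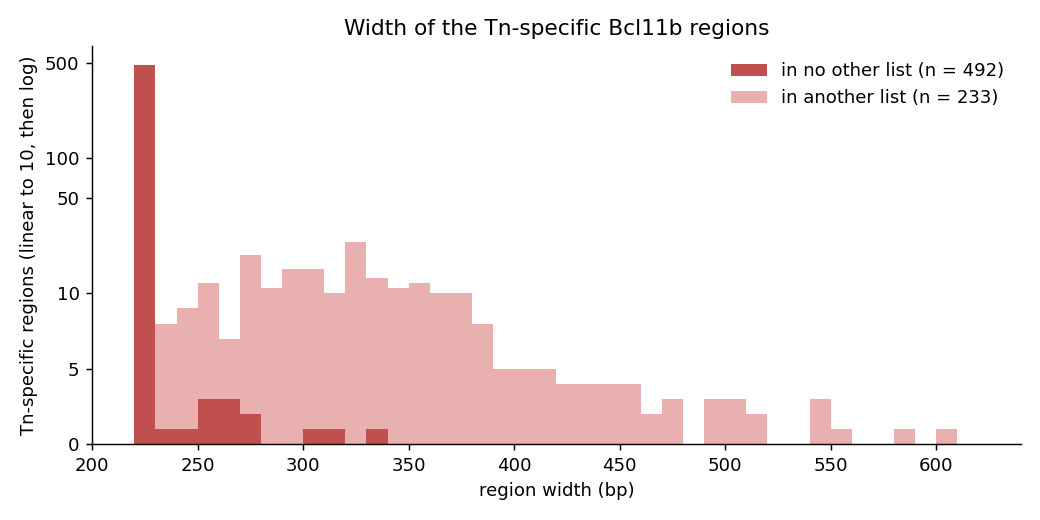
Number of Tn-specific Bcl11b regions by width in 10 bp bins, on a count axis that is linear to 10 and logarithmic above, stacked by whether the region stood in another list. The 492 regions in no other list sit almost wholly at 226 bp, and the 233 others spread up to 608 bp.

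Tn-specific regions lay nearer to gene ends than Treg-specific regions and farther than common ones. A gene end is either end of a protein-coding gene. The centres of 241 of the 725 (33.2%, 29.9 to 36.8) were within 1 kb of one, against 50.2% of common regions (odds 0.494 times as high, 0.417 to 0.585, exact adjusted p = 3.1e-17) and 13.6% of Treg-specific regions (odds ratio 3.15, 2.57 to 3.87, exact adjusted p = 4.6e-28). The median distance to a gene end was 3.88 kb for Tn-specific, 0.975 kb for common and 7.15 kb for Treg-specific regions. Centres inside a gene and over 1 kb from its ends made up 40.6% of the Tn-specific regions, those outside genes and over 1 kb away 26.2%, and 48 regions (6.62%) were over 50 kb from any gene end. The share inside protein-coding genes was 63.4%, beside 62.3% of common regions (odds ratio 1.05, exact adjusted p = 0.671) and 60.9% of Treg-specific regions (odds ratio 1.11, exact adjusted p = 0.307), and neither difference passed the test.

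Foxp3 listing and nearness to gene ends went together within the Tn-specific regions. Of the 224 listed in the WT against Bcl11b-KO Foxp3 comparison, 126 (56.3%, 49.7 to 62.6) had their centre this close to one, and of the 501 others 115 (23.0%, 19.5 to 26.8; odds ratio 4.31, 3.04 to 6.12, exact adjusted p = 2.1e-17 over 3 tests chosen after the values were seen). The same direction held among common regions, with 63.7% of listed and 31.2% of other regions, and among Treg-specific regions, with 37.6% and 10.5%. Among the 193 Tn-specific regions wider than 276 bp, only 9 were not listed, and the odds ratio was 2.42 (exact p = 0.306). Within 1 kb of a gene end were 29 of the 48 WT-specific regions (60.4%), 90 of the 156 common ones (57.7%) and 7 of the 20 Bcl11b-KO-specific ones (35.0%), and neither difference from the common ones passed the exact test (adjusted p = 0.867 and 0.091).

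**Figure D3:**
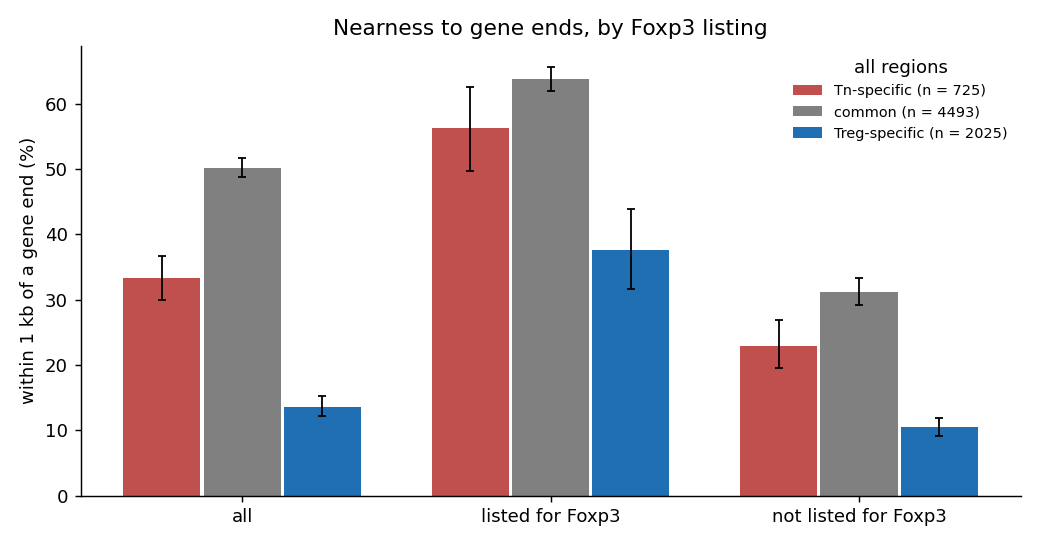
Percentage of region centres within 1 kb of a protein-coding gene end for Tn-specific, common and Treg-specific Bcl11b regions, over all regions of each set and split by listing in the WT against Bcl11b-KO Foxp3 comparison; error bars are Wilson 95% intervals. In each set the Foxp3-listed regions are higher, with 56.3% against 23.0% for the Tn-specific ones.

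Start sites were known for 17492 of 21887 protein-coding genes. Within 1 kb of one lay 209 Tn-specific regions (28.8%), 121 with the centre downstream and 88 upstream, with a median position of 41 bp downstream. Of these, 63.6% were within 250 bp of the start, against 76.7% of common regions within 1 kb, whose median lay 14 bp upstream (-14 bp). Of the 189 Treg-specific regions within 1 kb, 102 lay downstream and 87 upstream, with a median of 22 bp downstream, and 43.4% were within 250 bp. A promoter window was touched by 129 Tn-specific regions (17.8%). By Foxp3 listing, this was 90 of 224 listed regions (40.2%) and 39 of 501 others (7.78%).

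**Figure D4:**
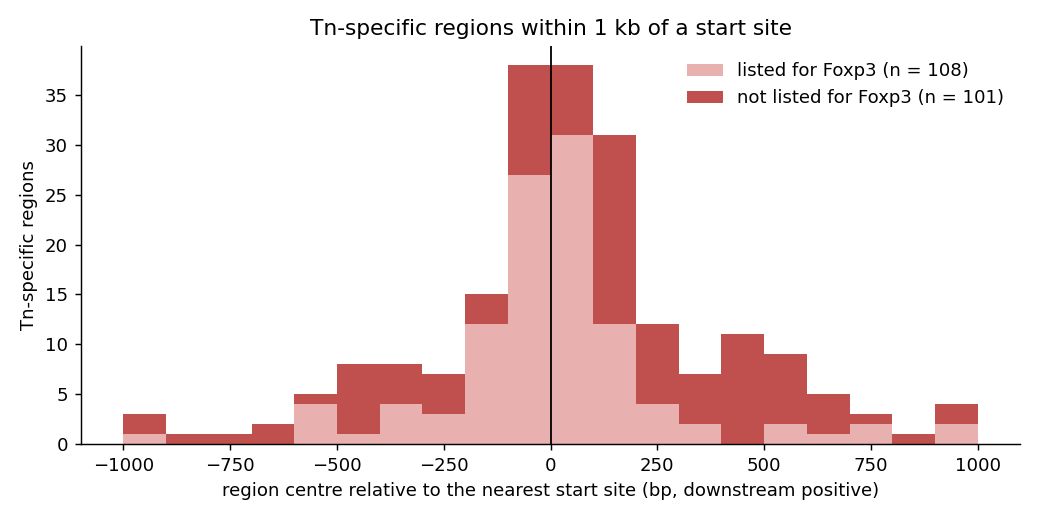
Number of Tn-specific regions by position of the region centre relative to the nearest known start site, in 100 bp bins with downstream positive, for the 209 regions within 1 kb, stacked by listing in the WT against Bcl11b-KO Foxp3 comparison. The highest bins adjoin the start site, and the regions not listed for Foxp3 reach farther downstream.

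Promoter windows covered by Bcl11b regions of each class had more G and C than promoters at large. Over the 116 windows covered over at least 100 bp, 90 of them by Foxp3-listed regions, the median GC content was 64.5% and the median number of CpG pairs was 25. Windows under common regions had 62.3% and 24, those under Treg-specific regions 62.0% and 22, and all 21263 promoter windows 56.3% and 13. The ETS letters stood in 42.2% (33.6 to 51.3) of the 116 windows, in 49.3% of windows under common regions, in 46.8% under Treg-specific regions and in 18.7% of all windows. The GC box letters stood in 70.7%, 65.2%, 72.2% and 46.2% in the same order. RUNX letters, present in the Stat6, Asxl2 and Kdm5c windows above, stood in 20.7% (14.3 to 28.9), 12.3%, 19.0% (11.9 to 29.0) and 15.0%, and E-box letters in 44.8%, 38.2%, 38.0% and 48.6%. The forkhead letters, present in the Prdm1 and Maml3 windows, stood in 2.59%, 2.53%, 3.80% and 3.01%. TCF, CTCF core, AP-1 and GATA letters were in 12.9%, 18.1%, 5.17% and 4.31% of the 116 windows and in 14.4%, 12.9%, 6.99% and 6.92% of all. These shares count letters anywhere in the window, and the Stat6 RUNX and Prdm1 forkhead letters lie outside the regions. They are descriptions without a test, and GC content differs between the sets.

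**Figure D5:**
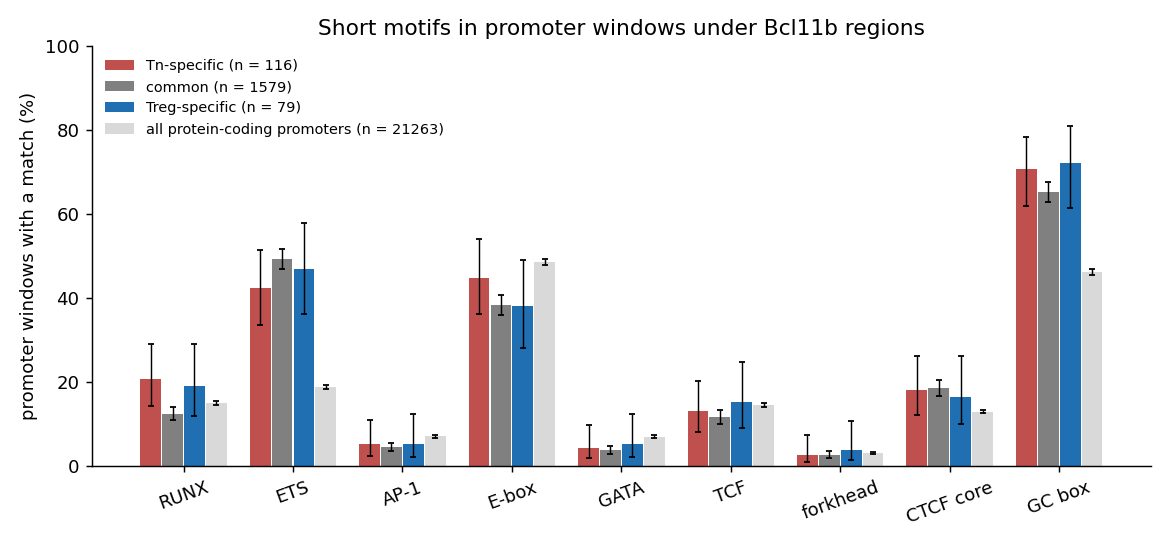
Percentage of promoter windows of 300 bases that hold each short motif on either strand, for windows covered over at least 100 bp by Tn-specific, common or Treg-specific regions and for all windows; error bars are Wilson 95% intervals. ETS and GC box letters are more frequent under all 3 region sets than over all windows, at 42.2% and 70.7% for the Tn-specific set.

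A region was given the name of the closest protein-coding gene, measured from its centre and up to 100 kb away. This gave 709 regions at 680 genes, 3.11% of all protein-coding genes, 652 of them with a single region. Of the 680 genes, 170 (25%) also had a common region and 91 (13.4%) a Treg-specific region, 31 had both and 450 (66.2%) had neither. Tbc1d5, which encodes a GTPase-activating protein of endosomal transport, had 3. Its first lay at chr17:51178582-51178807 in no other list, and its second, at chr17:51179124-51179449, was specific to Bcl11b-KO Foxp3 and also listed for Treg in the KIKO comparison. The third, at chr17:51188029-51188254, lay outside the gene and in no other list. A further 27 genes had 2 regions. Over all protein-coding genes, 17.7% had a common and 8.29% a Treg-specific region, and the counts of list genes below stand beside these shares and the 3.11% for a Tn-specific region. The gene lists were drawn up with earlier results known, and their counts carry no test.

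Genes that mark naive and lineage-committed T cells carried Tn-specific regions at 6 of 30 list members, common ones at 21 and Treg-specific ones at 7. Over all genes the shares were 3.11%, 17.7% and 8.29%. Lef1, a transcription factor gene of the TCF family, had a region of 555 bp at chr3:131111977-131112531, listed for Foxp3 only and common to WT and Bcl11b-KO Foxp3. The region of Klf2, a gene of T cell quiescence and recirculation, had 542 bp and the same pair of classes, 15.3 kb outside the gene at chr8:72303488-72304029. Tcf7, which encodes TCF-1, had a region of 226 bp in no other list, 9.86 kb outside the gene at chr11:52293128-52293353. Foxp1, a forkhead gene of naive T cell quiescence, and Tcf12, which encodes an E protein, each had a region of 226 bp inside the gene and in no other list, at chr6:99261115-99261340 and chr9:72101314-72101539. The region in Bcl11b itself, at chr12:107993095-107993393, was common to Treg and KIKO Bcl11b, shared with Foxp3 and common to WT and Bcl11b-KO Foxp3, so other lists place it on the Treg side. Lef1 and Klf2 were therefore the naive-list genes with a Foxp3-listed region on which the lists do not disagree.

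The Treg signature, with 29 genes, held 1 Tn-specific region (3.45%), near the 3.11% of all genes. A Treg-specific region was at 11 of the 29 and a common one at 8, against 8.29% and 17.7% of all genes. The Tn-specific one was the Prdm1 region shown above, at chr10:44458420-44458810, which spans the start site of the RefSeq window and lies 21.4 kb from the nearest outer end of the gene. No Tn-specific region was assigned to Foxp3, Il2ra, Ctla4, Ikzf2, Ikzf4, Il10, Satb1, Gata3, Ifng or Il17a. Of the 30 T helper effector genes, Stat6 had a region of 226 bp over its start site (chr10:127642863-127643088), and Il5, the gene of the eosinophil growth factor, had one 6.47 kb outside the gene (chr11:53714213-53714438). Both were in no other list. The 26 genes of IL-2 and STAT5 signalling held 1, at Akt1, a kinase gene downstream of PI3K (chr12:112675328-112675594), which was Foxp3 only and WT-specific. Tgfb1, which encodes the cytokine TGF-beta 1 and was named as 1 of the widest regions in neither Foxp3 comparison, had 332 bp inside the gene at chr7:25688014-25688345.

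T cell receptor signalling genes had Tn-specific regions at 3 of 30 members, common ones at 24 and Treg-specific ones at 8. The shares of all genes were 3.11%, 17.7% and 8.29%. Csk, the kinase that holds Lck in check, had a region of 432 bp inside the gene that was common to WT and Bcl11b-KO Foxp3. Egr2, an immediate early gene, and Nfatc2, an NFAT gene, each had a region of 226 bp inside the gene and in no other list. Of 30 Notch and Wnt genes, 9 had a common and 5 a Treg-specific region, against 17.7% and 8.29% of all genes. Tn-specific regions were at 5 of the 30, against 3.11% of all genes, with Ctnnb1, Dll4 and Dtx1 beside Lef1 and Tcf7. Dll4, a Notch ligand gene, had a region of 474 bp 2.36 kb outside the gene at chr2:119337789-119338262, and Ctnnb1, the gene of beta-catenin, had one of 467 bp 0.16 kb outside at chr9:120960434-120960900. Both were specific to Bcl11b-KO Foxp3, and the Dll4 region was also Foxp3 only in WT Treg cells and common to Treg and KIKO Bcl11b. Dtx1, which encodes a Notch regulator, had a region of 226 bp 2.56 kb outside the gene in no other list.

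Of 27 genes of fibroblast growth factors and receptors, 4 had 6 Tn-specific regions, 0 had a common and 1 had a Treg-specific region, where the shares over all genes were 3.11%, 17.7% and 8.29%. Fgf18 had a pair separated by 56 bp, at chr11:33147945-33148170 in no other list and at chr11:33148226-33148699, which was 474 bp wide and common to WT and Bcl11b-KO Foxp3. Fgf13 had 1 region inside the gene in no other list (chrX:59135172-59135397) and 1 of 341 bp 3.61 kb outside, which was Foxp3 only and common to WT and Bcl11b-KO. Fgf9 and Fgf6 had 1 each, 8.47 kb and 17.6 kb outside the gene, in no other list. Of 22 Eph receptor and ephrin genes, Epha3 had 2 regions outside the gene, at 2.81 kb and 13.2 kb, and Ephb6 had 1 inside, all of 226 bp and in no other list.

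Partner and chromatin genes on the NuRD and Bcl11b list had Tn-specific regions at 3 of 25, against 3.11% of all genes. They were at Bcl7b, a gene of SWI/SNF complexes (510 bp, Foxp3 only and common to WT and Bcl11b-KO), Mta2, a NuRD subunit gene (358 bp, the same classes), and Hdac2, a histone deacetylase gene (226 bp, in no other list). A common region was at 6 of the 25 and a Treg-specific one at 2, against 17.7% and 8.29% of all genes. Among markers of other cells, Fcrla of B cells, Cd8b1 of CD8 T cells and the neural genes Cdh12 and Ptprd each had 1 region of 226 bp in no other list, out of 12, 12 and 20 list genes. None of the 12 myeloid and 0 of the 28 housekeeping genes had one, and 13 housekeeping genes had a common region. The 1 homing gene of 30 was Klf2. With 3.11% of all genes as background, nothing is read from counts of 1 or 0.

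The widest Tn-specific regions were all listed for Foxp3, as were 184 of the 193 wider than 276 bp, so this is a description. Above that width 2206 of 2345 common and 189 of 190 Treg-specific regions were listed too. Aqr, a splicing helicase gene, had 608 bp at chr2:114144974-114145581, and Rfwd3, a ubiquitin ligase gene of DNA repair, had 580 bp at chr8:111299977-111300556; both were Foxp3 only and common to WT and Bcl11b-KO. The widest of the WT-specific class were at Zfp143 and Slc25a32, a mitochondrial folate carrier gene, with 493 bp each, followed by Pdcd11 with 456 bp, Sag with 430 bp, Smim13 with 416 bp and Jund, an AP-1 subunit gene, with 415 bp. The widest Bcl11b-KO-specific regions were at Dll4 and Ksr1, a scaffold gene of the Ras pathway, with 474 bp each, then Ctnnb1, Hmcn2 with 455 bp, Foxn3, a forkhead repressor gene, with 443 bp, and Serping1 with 402 bp. Those at Dll4, Hmcn2, Foxn3 and Serping1 were listed for WT Foxp3 in the other comparison, so the 2 Foxp3 comparisons disagree on them. Those at Ksr1 and Ctnnb1 were not listed there. In neither Foxp3 comparison the widest were at Hif1an with 337 bp, Tgfb1, Cacnb3 with 319 bp and Ablim1 with 318 bp. Of the regions in this paragraph, those at Rfwd3, Sag, Jund, Dll4, Hif1an and Cacnb3 are among the 53 that another list places on the Treg Bcl11b side.

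Tn-specific regions stood mostly alone, and so did Treg-specific ones. Within 10 kb of another Tn-specific region lay 33 (4.55%), within 10 kb of a Treg-specific region 51 (7.03%) and within 10 kb of a common region 106 (14.6%). Of the Treg-specific regions, a larger set of 2025, 8.20% lay within 10 kb of another of their kind and 14.0% of a common region. A Foxp3 region of the WT against Bcl11b-KO comparison, other than the region itself, lay within 10 kb of 309 Tn-specific regions (42.6%, 39.1 to 46.3). The same share was 53.7% for common and 43.7% for Treg-specific regions. In 5 places a pair lay less than 1 kb apart, at Fgf18, Usp4, Tbc1d5, Snx29 and near Gm52481 on chromosome Y. At Usp4, a deubiquitinase gene, 123 bp separated a region in no other list from one common to WT and Bcl11b-KO Foxp3.

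Chromosome X held a larger share of Tn-specific than of other Bcl11b regions, with 27 of 725 (3.72%, 2.57 to 5.36) against 49 of 4493 common (1.09%; odds ratio 3.51, 2.09 to 5.77, two-sided exact test, adjusted p = 1.5e-06) and 8 of 2025 Treg-specific regions (0.395%; odds ratio 9.74, 4.28 to 24.9, exact adjusted p = 7.9e-10). These 2 tests were chosen after the values were seen. Of all regions in the series 1.83% were on chromosome X. The share was 2.57% for WT-specific, 2.05% for common and 0.779% for Bcl11b-KO-specific Foxp3 regions. In the comparison of Bcl11b with Foxp3 in WT Treg cells it was 2.89% for Foxp3 only (2.57 to 3.25), 0.718% for shared and 0.320% for Bcl11b only regions. Of the 27 regions, Usp9x, an X-linked deubiquitinase gene, and Fgf13 had 2 each, and Kdm5c and Zfp275 had 1 each near a gene end. The labels used here give no sex of the animals. Among regions wider than 276 bp the odds ratios were 2.05 and 1.99 and neither passed (exact adjusted p = 0.318 and 0.685), with 4 of the 193 Tn-specific regions on chromosome X.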

How the data were processed

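The 20 ChIP-seq samples were processed by the authors on build mm10. The submitters' processing notes name HISAT2 2.1.0, HOMER 4.10.1, deepTools, SAMtools 1.3, Trim Galore 0.4.2, FastQC and cutadapt 1.12, without settings. The authors deposited 12 lists of regions with chromosome, start and end, so no unit of signal is used. How classes were set, the peak threshold and any pooling of replicates are not stated in the labels or files. No list is named in the label of Treg Bcl11b replicate 3.

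Lists were matched by identity, since no regions overlap, and the 4 regions in 2 classes of the Treg against Tn comparison were left out of the sets compared. Genes and promoter windows came from RefSeq tables of GRCm38.p6, the assembly of mm10. Exon and intron annotation was not used here. Start sites were known for 79.9% of protein-coding genes, so gene ends were the main measure. Shares were compared by Fisher's exact test, two-sided, with conditional odds ratios, exact 95% intervals and Benjamini-Hochberg adjustment. Neighbouring regions of a gene may depend on each other, which can make p-values too small. Tests used scipy 1.17.1 in Python 3.11.15 with pandas 2.3.3 and numpy 2.4.6, and plots matplotlib 3.10.9.

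Genes were named by rule: a fixed set of T cell genes, genes with 2 or more Tn-specific regions, up to 8 per gene list, the 10 widest regions on which lists conflict, and the 6 widest of each Foxp3 class; the text gives part of these, and other genes were chosen after their values were seen. The members and the 15 gene lists were chosen with earlier results of these data known. The steps were tested on simulated data: 420 of 420 gene assignments were right, and with the sizes of the Tn-specific and common sets 281 of 300 intervals held the planted odds ratio and 13 of 300 null draws gave p under 0.05.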

Additional observations from a re-analysis of the deposited data

How the results depend on the processing

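Of 87 alternatives, 77 were counted as the same, 4 fell short of the 0.05 threshold, 2 newly passed it and 4 were counted as reversed. Results that passed in neither setting were counted as the same, also where the odds ratio crossed 1. That of WT-specific listing against Treg-specific regions, 1.01, was 0.970 with the 53 regions left out and 0.972 on autosomes only. The 77 also include gene counts of 672 and 893 beside 680, which have no direction. All 4 that were counted as reversed concern results that passed in the main setting, and they came under the settings that select on width. With regions wider than 276 bp only, the odds ratio of Foxp3 listing turned to 1.29 against common and 0.109 against Treg-specific regions, that of KIKO listing against Treg-specific regions, a description, was 0.696, and those of gene ends by Foxp3 listing within the Tn-specific regions (2.42) and of chromosome X (2.05 and 1.99) no longer passed. With Tn-specific regions of 226 bp only, the odds ratio of Foxp3 listing against Treg-specific regions was 0.0158, with 1 of 480 listed, and that of Bcl11b-KO-specific listing against common was 0, with 0 of 1. A width of exactly 226 bp and presence in another list nearly exclude each other, and regions wider than 276 bp are mostly those in another list, so these settings select on listing and say nothing about the Foxp3 listing results. With the 53 regions that other lists place on the Treg side left out, the odds ratio of KIKO listing was 0.0083 against common and 0.0293 against Treg-specific regions. This setting removes by definition every Tn-specific region common to Treg and KIKO. These low values were therefore largely fixed in advance, and nothing is read from them. With 10 kb added to each side of genes, the gene body odds ratio was 0.661 against common (exact adjusted p = 0.00543) and 1.36 against Treg-specific regions (exact adjusted p = 0.0352); the cause was not tested. Bcl11b-KO-specific listing against common regions kept odds ratios from 2.29 to 2.77 under the alternatives that do not select on width. The settings with start sites, promoter windows, Foxp3 listing from the other comparison, and all alternatives of the tests within Tn-specific regions and on chromosome X were added after seeing the data. No paired analysis was possible because the lists are per group and hold no value per replicate, so no replicate could be left out either, and depth limits could not be set.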
